A study of Mus musculus with 12 samples.

Results

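The autophagy machinery is described here as 40 mouse genes ordered by the step of autophagy in which their proteins act. The genes were listed by name, with earlier results of these data known. They were found in the deposited table through their Ensembl identifiers, and all 40 of them were among its 54532 genes. Expression was measured by RNA-seq of colon from C57BL/6J mice labelled WT, in 4 groups of 3 libraries. The groups were a high-fat diet with 2% DSS (HFD+DSS), a diet that the labels call CD with 2% DSS (CD+DSS), the high-fat diet alone (HFD) and the CD diet alone (CD). DSS, dextran sulfate sodium, is a polysaccharide that injures the colonic epithelium and is a common means of producing colitis in mice. The age and sex of the mice, the length of each treatment and the piece of colon taken are not stated in the labels. The series concerns whether a high-fat diet lowers autophagy in colitis, and for its colon data the question is how these genes' transcripts differ with diet and with DSS.

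Autophagy encloses cytoplasm, protein aggregates or organelles in a newly built membrane sac, the autophagosome, and delivers them to the lysosome for breakdown. A kinase complex starts the process, a lipid kinase complex marks the growing membrane, lipid carriers enlarge it, and a chain of conjugation enzymes fixes proteins of the LC3 and GABARAP family to it. In the intestine the pathway is known for its part in Paneth and goblet cell secretion and in defence against bacteria that enter the epithelium. Much of its control acts on proteins, by phosphorylation, lipid attachment and turnover, and transcript levels do not report it.

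Expression is given as FPKM, a count of fragments scaled by gene length and by a factor for each library. It is a level per length and can be set side by side between genes. All 40 genes reached an FPKM of 1 in at least 3 of the 12 libraries and so were among the 14179 genes tested. Between 14655099 and 17927376 fragments lay on genes in a library, as recovered from the FPKM values, and the least covered of the 40 genes had 54 to 107 fragments in each. The 10 epithelial markers were all present in every library, with a summed level of 4192 to 9272 FPKM, and 7 markers of exocrine pancreas summed to at most 0.37 FPKM in any library. CD+DSS library 2 stood apart: it had the highest value of 15 of the 40 genes and was above the mean of all 12 libraries for 35 of them. Its FPKM summed over all genes was also the highest, 434601, against 314755 to 408250 in the other libraries. The median deviation on the log2 scale in this library was 0.022 over all genes tested and 0.193 over the 40. HFD+DSS library 3 had the lowest value of 15 genes, and HFD+DSS library 1 that of 10. The libraries also differed in 3 posterior Hox genes, which mark position along the gut. Their summed level was 46.6 to 92.8 FPKM in HFD+DSS, 1.62 to 40.5 in CD+DSS, 7.04 to 34.7 in HFD and 38.3 to 111 in CD.

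**Figure D1:**
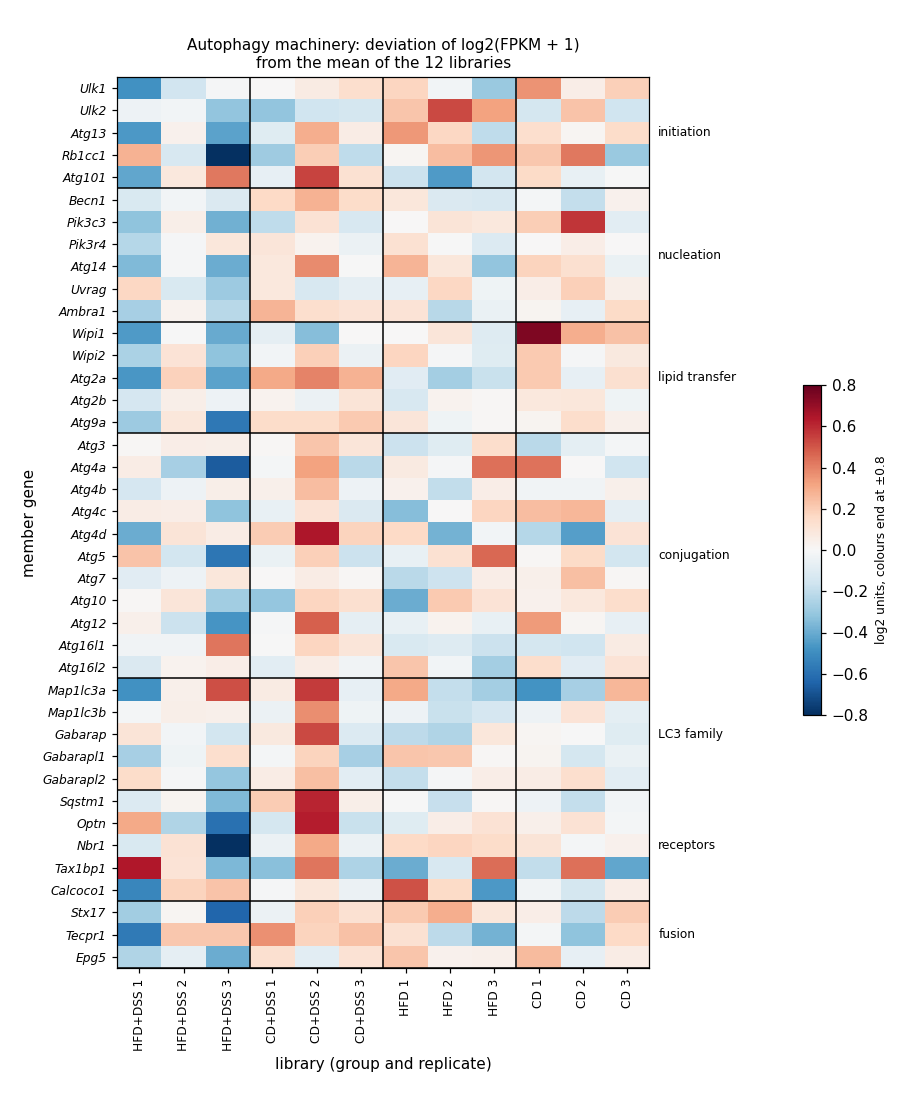
Each row is one of the 40 genes, grouped by step, and each column one of the 12 libraries; colour gives the deviation of log2(FPKM + 1) from that gene's mean over all libraries. CD+DSS library 2 is red for 35 of 40 genes, and the blue columns are HFD+DSS libraries 1 and 3, with the lowest values of 10 and 15 genes.

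The 40 genes spanned from 1.06 FPKM for Atg16l2 to 142 FPKM for Gabarap in their mean over the 12 libraries. The 4 highest were Gabarap, the selective autophagy receptors Sqstm1 at 75.2 FPKM and Tax1bp1 at 67.5 FPKM, and the receptor Nbr1 at 33.0 FPKM. Sqstm1 and Tax1bp1 are neighbours in this order whose ranges over libraries overlap, 57.9 to 114 FPKM for Sqstm1 and 48.6 to 102 FPKM for Tax1bp1. Genes of the LC3 family and receptors, proteins that are in part consumed with the cargo, took the first 7 places, whereas the median gene of a step stood at 7.175 FPKM for initiation, 6.36 for nucleation, 6.64 for lipid transfer, 6.53 for conjugation and 3.69 for fusion. The order depends on the length that divides the fragments. When the length of the principal transcript was used in place of all exons together, a choice made after the data were seen, Tax1bp1 came first at a level of 205 on the FPKM scale and Gabarap second at 195. On that scale Map1lc3b moved up to place 4 from place 11, and Wipi2 to place 7 from place 24.

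**Figure D2:**
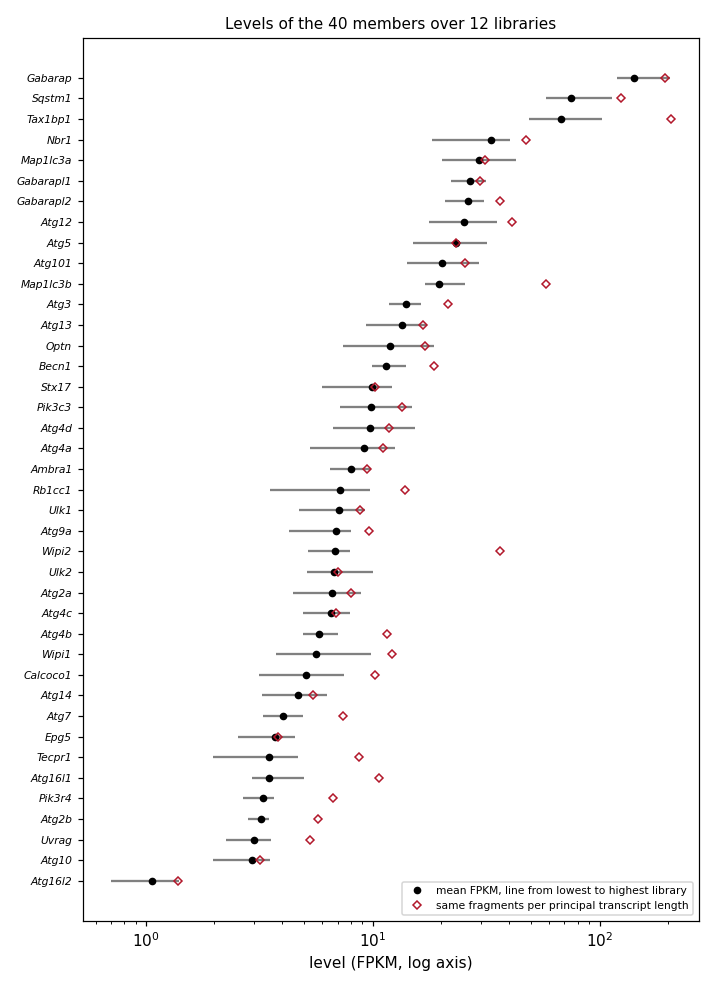
The horizontal log axis gives the level in FPKM of each of the 40 genes, with a dot for the mean of 12 libraries, a line from the lowest to the highest library and a diamond for the same fragments divided by the principal transcript's length. Gabarap is highest at 142 FPKM and Atg16l2 lowest at 1.06 FPKM, and the diamond of Tax1bp1 lies at 205.

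Initiation rests on the kinases Ulk1 and Ulk2 and their partners Atg13, Rb1cc1 (also called FIP200, a large scaffold) and Atg101, which stabilises Atg13. Ulk1 had 4.71, 6.19 and 6.93 FPKM in HFD+DSS, 7.01, 7.36 and 7.76 FPKM in CD+DSS, 8.01, 6.86 and 5.50 FPKM in HFD, and 9.24, 7.28 and 8.13 FPKM in CD. All 3 HFD+DSS libraries lay below all 3 CD+DSS libraries, while HFD overlapped with HFD+DSS and with CD. Ulk2 had 6.41, 6.52 and 5.15 FPKM in HFD+DSS, 5.13, 5.83 and 5.92 FPKM in CD+DSS, 7.89, 10.0 and 8.53 FPKM in HFD, and 5.94, 7.93 and 5.83 FPKM in CD. The HFD libraries were the high ones for Ulk2, apart from both DSS groups and overlapping with 1 CD library. Both kinases were thus at a like level per length, with means over all libraries of 7.08 FPKM for Ulk1 and 6.76 FPKM for Ulk2. Atg13 averaged 10.9 ± 2.4 FPKM in HFD+DSS, 14.2 ± 2.1 in CD+DSS, 14.5 ± 2.9 in HFD and 14.3 ± 0.76 in CD (SD, n = 3 each here and below). Rb1cc1 averaged 6.16 ± 2.56 FPKM in HFD+DSS, 6.52 ± 1.39 in CD+DSS, 8.21 ± 1.08 in HFD and 7.81 ± 2.14 in CD. Its HFD+DSS libraries ran from 3.54 to 8.66 FPKM, with library 3 the lowest and library 1 the third highest of the 12 libraries. Atg101, the highest of the complex, averaged 20.9 ± 6.1 FPKM in HFD+DSS, 23.3 ± 5.4 in CD+DSS, 16.5 ± 2.0 in HFD and 20.3 ± 1.6 in CD.

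Promoter windows from RefSeq (GRCm38.p6, 250 bases before to 50 after a start, 300 bases) were matched to 33 of the 40 genes, in 37 windows, and searched on both strands for 5 motifs that known regulators of autophagy genes or general factors bind. The E-box core CACGTG was in 10.8% of the 37 windows, against 7.15% of all 32851 windows of that length. The palindrome of the CLEAR element, which TFEB binds and which is the E-box core with GT before it and AC after it, was in 0 of them, against 0.326% of all. The core of the antioxidant response element, TGACNNNGC, which NRF2 binds, was in 10.8%, against 12.4% of all. The forkhead core GTAAACA, which FOXO factors bind, was in 0 of the 37, against 3.65% of all, and the GC box GGGCGG was in 64.9%, against 35.7% of all. A match is a description of letters and no evidence of binding. The window of Ulk2 (chr11:61855043-61855342, minus strand) is shown because Ulk2 is 1 of 4 genes with the antioxidant response element core and recurs in the comparisons below. Capitals mark a GC box and then the antioxidant response element core, read 5′ to 3′ on the gene's strand.
Ulk2: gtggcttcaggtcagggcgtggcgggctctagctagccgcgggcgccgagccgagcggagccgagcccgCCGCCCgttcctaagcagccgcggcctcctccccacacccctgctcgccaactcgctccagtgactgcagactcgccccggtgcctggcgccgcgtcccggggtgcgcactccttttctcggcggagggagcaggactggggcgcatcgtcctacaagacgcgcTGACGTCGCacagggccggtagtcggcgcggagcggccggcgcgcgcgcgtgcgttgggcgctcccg

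Nucleation is the work of a lipid kinase complex that makes phosphatidylinositol 3-phosphate on the growing membrane. Pik3c3 is its catalytic subunit (VPS34), Pik3r4 its regulatory subunit, Becn1 (Beclin 1) its core scaffold, and Atg14 or Uvrag the alternative subunits that direct it to autophagosome formation or to endosomes. Ambra1 binds Beclin 1 and links it to the kinase complex. Becn1 had 10.4, 11.2 and 10.5 FPKM in HFD+DSS, 12.9, 14.0 and 12.7 in CD+DSS, 12.2, 10.5 and 10.3 in HFD, and 11.3, 9.88 and 11.7 in CD. Its CD+DSS libraries were the 3 highest of the 12. Ambra1 had 6.47, 8.16 and 6.71 FPKM in HFD+DSS, 9.84, 8.87 and 8.68 in CD+DSS, 8.71, 6.70 and 7.67 in HFD, and 8.12, 7.59 and 8.97 in CD. All 3 HFD+DSS libraries lay below all 3 CD+DSS libraries, and the groups without DSS overlapped with both. Atg14 had 3.40, 4.57 and 3.26 FPKM in HFD+DSS, 4.95, 6.29 and 4.59 in CD+DSS, 5.77, 4.97 and 3.50 in HFD, and 5.36, 5.14 and 4.41 in CD. HFD+DSS was again below CD+DSS, by a narrow margin between HFD+DSS library 2 and CD+DSS library 3. The kinase Pik3c3 averaged 8.24 ± 1.54 FPKM in HFD+DSS, 9.18 ± 1.20 in CD+DSS, 10.1 ± 0.42 in HFD and 11.7 ± 2.9 in CD. Pik3r4 averaged 3.17 ± 0.46 FPKM in HFD+DSS, 3.37 ± 0.22 in CD+DSS, 3.31 ± 0.35 in HFD and 3.35 ± 0.09 in CD, and Uvrag averaged 2.80 ± 0.61 FPKM in HFD+DSS, 2.90 ± 0.30 in CD+DSS, 3.06 ± 0.36 in HFD and 3.27 ± 0.24 in CD. Pik3r4 and Becn1 had the narrowest ranges of the step, with highest-to-lowest ratios of 1.37 and 1.42 over the 12 libraries. Exons of Becn1 overlap those of the opposite-strand gene Cntd1 over 43.9% of their length, Cntd1 stood at 0.186 FPKM, and no label says whether counting used strand.

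The Atg14 window (chr14:47568385-47568684, minus strand) is 1 of 4 with the E-box core, beside those of Atg3, Atg5 and Atg7. Capitals mark 2 GC boxes and then the E-box core, which begins at base 250, the last base before the start.
Atg14: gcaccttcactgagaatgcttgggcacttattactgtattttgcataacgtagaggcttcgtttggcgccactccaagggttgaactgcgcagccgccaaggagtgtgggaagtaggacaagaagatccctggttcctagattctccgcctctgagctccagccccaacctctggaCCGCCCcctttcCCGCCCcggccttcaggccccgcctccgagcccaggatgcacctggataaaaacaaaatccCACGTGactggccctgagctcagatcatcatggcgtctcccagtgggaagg

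Lipid transfer enlarges the membrane. Atg9a is a scramblase carried on vesicles that seed the membrane, Atg2a and Atg2b are rod-shaped proteins that move lipids to it, and Wipi1 and Wipi2 bind the phosphatidylinositol 3-phosphate made in the step before. Atg2a had 4.44, 7.52 and 4.58 FPKM in HFD+DSS, 8.26, 8.88 and 8.11 in CD+DSS, 6.05, 5.22 and 5.62 in HFD, and 7.68, 6.19 and 7.20 in CD. The CD+DSS libraries were the 3 highest of all. HFD+DSS lay below CD+DSS, and HFD below CD, without overlap. Atg9a had 5.39, 7.31 and 4.26 FPKM in HFD+DSS, 7.67, 7.66 and 8.02 in CD+DSS, 7.37, 6.63 and 6.86 in HFD, and 6.93, 7.60 and 7.03 in CD. Here HFD+DSS libraries 1 and 3 were the lowest of the 12, and HFD+DSS library 2 was within the range of the groups without DSS. Exons of the same-strand gene Gm29253, at 0 FPKM, cover 31.8% of the exon length of Atg9a. Wipi1 had 3.73, 5.46 and 3.90 FPKM in HFD+DSS, 5.14, 4.12 and 5.49 in CD+DSS, 5.48, 5.91 and 5.01 in HFD, and 9.86, 6.90 and 6.61 in CD. The CD group was above every library of the other 3 groups for Wipi1, with CD library 1 highest. Wipi2 averaged 6.01 ± 1.17 FPKM in HFD+DSS, 7.00 ± 0.75 in CD+DSS, 6.89 ± 0.76 in HFD and 7.26 ± 0.63 in CD. Atg2b stayed between 2.83 and 3.50 FPKM in all 12 libraries, the narrowest range of the 40 genes at a highest-to-lowest ratio of 1.24.

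Of the windows of this step, that of Atg2a (chr19:6241418-6241717, plus strand), whose diet comparison had the smallest p of the 40 genes, held none of the 5 motifs and so has no capitals. That of Wipi1 (chr11:109611340-109611639, minus strand) held 9 GC boxes, in capitals.
Atg2a: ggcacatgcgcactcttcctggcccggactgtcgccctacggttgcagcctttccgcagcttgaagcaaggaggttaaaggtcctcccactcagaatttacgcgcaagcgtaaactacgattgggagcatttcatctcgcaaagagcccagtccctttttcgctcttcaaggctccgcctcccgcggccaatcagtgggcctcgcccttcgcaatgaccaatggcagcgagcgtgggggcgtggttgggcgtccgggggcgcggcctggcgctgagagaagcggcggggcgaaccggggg
Wipi1: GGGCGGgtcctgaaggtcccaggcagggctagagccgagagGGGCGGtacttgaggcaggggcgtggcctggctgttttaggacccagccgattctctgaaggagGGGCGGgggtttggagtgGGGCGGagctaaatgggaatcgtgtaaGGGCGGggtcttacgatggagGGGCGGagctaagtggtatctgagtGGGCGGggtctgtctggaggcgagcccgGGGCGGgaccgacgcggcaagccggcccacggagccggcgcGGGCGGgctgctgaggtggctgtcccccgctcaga

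Conjugation attaches LC3 family proteins to the lipid phosphatidylethanolamine. Atg7 is the activating enzyme, Atg3 and Atg10 the conjugating enzymes, Atg12 a ubiquitin-like protein joined to Atg5, and Atg16l1 the partner that brings that pair to the membrane. Atg16l2 is a homologue of Atg16l1, and Atg4a to Atg4d are proteases that trim LC3 proteins and release them from lipid. The highest of the 11 genes were Atg12, with group means of 21.9 ± 4.0 FPKM in HFD+DSS, 27.9 ± 6.3 in CD+DSS, 24.5 ± 0.89 in HFD and 27.0 ± 4.3 in CD, and Atg5, with 20.8 ± 6.0 in HFD+DSS, 22.8 ± 3.1 in CD+DSS, 26.2 ± 5.0 in HFD and 23.0 ± 2.5 in CD. Atg3 averaged 14.3 ± 0.26 FPKM in HFD+DSS, 15.1 ± 1.2 in CD+DSS, 13.5 ± 1.7 in HFD and 12.9 ± 0.96 in CD. The E1-like Atg7 was lower, with group means of 3.64 to 4.35 FPKM, as were Atg10, with 2.78 to 3.16 FPKM, and Atg16l2, with 1.03 to 1.14 FPKM. Atg16l1, in humans a risk gene for Crohn's disease, averaged 3.90 ± 0.94 FPKM in HFD+DSS, 3.73 ± 0.28 in CD+DSS, 3.05 ± 0.10 in HFD and 3.22 ± 0.37 in CD. The high value of HFD+DSS came from library 3 at 4.98 FPKM, and the other 2 libraries stood at 3.35 each. Of the proteases, Atg4a had group means of 7.34 to 10.3 FPKM, Atg4b 5.62 to 6.22 FPKM and Atg4c 6.17 to 7.31 FPKM. Atg4d had 6.96, 10.3 and 9.93 FPKM in HFD+DSS, 11.1, 15.4 and 10.9 in CD+DSS, 10.7, 7.08 and 9.34 in HFD, and 7.96, 6.71 and 10.3 in CD. The 3 CD+DSS libraries were the highest of the 12 for Atg4d, and exons of the opposite-strand gene Kri1, at 1.77 FPKM, cover 19.3% of its exon length.

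The LC3 family are the small ubiquitin-like proteins that coat the membrane and hold receptors to it. Gabarap had 151, 139 and 128 FPKM in HFD+DSS, 149, 204 and 131 in CD+DSS, 122, 119 and 150.3 in HFD, and 143, 141 and 132 in CD. It made up 58.1 ± 3.2% of the family's summed FPKM (SD over 12 libraries), and CD+DSS library 2 was the 1 library far above the rest. Map1lc3a had 20.2, 29.6 and 41.5 FPKM in HFD+DSS, 30.0, 42.7 and 27.4 in CD+DSS, 35.6, 25.0 and 23.5 in HFD, and 20.3, 23.7 and 34.6 in CD. All 4 groups overlapped, with high and low libraries in each. Map1lc3b, the form most used as an autophagosome marker, had 19.2, 20.2 and 20.0 FPKM in HFD+DSS, 18.8, 25.5 and 19.0 in CD+DSS, 18.9, 17.1 and 17.6 in HFD, and 18.9, 21.1 and 18.4 in CD. Without CD+DSS library 2 its values lay within 17.1 and 21.1 FPKM. Gabarapl1 had 22.1, 26.1 and 29.5 FPKM in HFD+DSS, 26.5, 30.4 and 22.1 in CD+DSS, 31.4, 31.3 and 26.9 in HFD, and 27.3, 24.2 and 25.7 in CD. Gabarapl2 had 29.0, 25.9 and 20.9 FPKM in HFD+DSS, 27.3, 31.0 and 24.6 in CD+DSS, 22.8, 25.9 and 27.2 in HFD, and 27.3, 28.7 and 24.6 in CD. Both overlapped in all groups. The shares of the other genes in the family's sum were 12.0 ± 2.8% for Map1lc3a, 11.1 ± 1.6% for Gabarapl1, 10.8 ± 1.1% for Gabarapl2 and 8.01 ± 0.47% for Map1lc3b, so the first 3 of these did not differ beyond their spread. These genes are close relatives, and how the authors' counting treated reads that match more than one of them is not stated in the labels.

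Selective autophagy receptors bind ubiquitin-tagged cargo on one side and LC3 proteins on the other. Sqstm1, or p62, is itself degraded with its cargo and also joins the NRF2 pathway. It had 68.6, 75.4 and 57.9 FPKM in HFD+DSS, 85.5, 114 and 76.7 in CD+DSS, 74.1, 65.1 and 74.8 in HFD, and 72.2, 65.0 and 73.2 in CD. The 3 CD+DSS libraries were the highest of the 12, with library 2 far above, and the other 3 groups overlapped. Tax1bp1, a receptor that also dampens NF-κB signalling, had 102, 70.4 and 50.7 FPKM in HFD+DSS, 51.6, 88.2 and 54.9 in CD+DSS, 49.4, 59.7 and 89.4 in HFD, and 56.8, 88.8 and 48.6 in CD. Every group held high and low libraries. Nbr1, which acts with p62 on protein aggregates, had 29.8, 35.3 and 18.3 FPKM in HFD+DSS, 31.5, 40.3 and 31.5 in CD+DSS, 36.4, 36.9 and 36.1 in HFD, and 35.0, 32.2 and 33.3 in CD. HFD+DSS library 3 was the low one, and the HFD values lay close together above all HFD+DSS values. Optn, or optineurin, which takes up damaged mitochondria and bacteria, had 14.6, 9.69 and 7.36 FPKM in HFD+DSS, 10.5, 18.5 and 10.2 in CD+DSS, 10.8, 12.1 and 12.7 in HFD, and 12.0, 12.7 and 11.5 in CD. Calcoco1, a receptor for parts of the endoplasmic reticulum and Golgi, had 3.15, 5.75 and 5.98 FPKM in HFD+DSS, 4.93, 5.35 and 4.76 in CD+DSS, 7.47, 5.63 and 3.33 in HFD, and 4.85, 4.40 and 5.19 in CD. All 4 groups overlapped for Optn and for Calcoco1. Sqstm1 made up 39.2 ± 4.7% and Tax1bp1 34.7 ± 6.3% of the receptors' summed FPKM (SD over 12 libraries), shares within their spread of each other, followed by 17.2 ± 2.5% for Nbr1, 6.12 ± 0.65% for Optn and 2.73 ± 0.89% for Calcoco1.

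The Sqstm1 window (chr11:50210771-50211070, minus strand) is shown because Sqstm1 is the receptor with the largest difference between the DSS groups. Capitals mark its 3 GC boxes, and neither the antioxidant response element core nor the E-box core is in these 300 bases. The opposite-strand gene Mrnip, at 0.558 FPKM, overlaps 17.3% of the exon length of Sqstm1.
Sqstm1: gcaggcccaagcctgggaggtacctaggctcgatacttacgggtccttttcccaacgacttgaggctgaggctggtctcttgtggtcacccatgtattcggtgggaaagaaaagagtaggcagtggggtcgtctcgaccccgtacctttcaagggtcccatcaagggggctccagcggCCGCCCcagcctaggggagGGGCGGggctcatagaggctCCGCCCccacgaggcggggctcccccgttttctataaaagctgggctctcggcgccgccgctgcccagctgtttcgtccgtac

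Fusion joins the closed autophagosome to the lysosome. Stx17 is the SNARE protein of the autophagosome membrane, and Tecpr1 and Epg5 are tethers that bring the membranes together. Stx17 had 7.93, 9.91 and 5.98 FPKM in HFD+DSS, 9.45, 11.3 and 10.7 in CD+DSS, 11.5, 12.2 and 10.5 in HFD, and 10.2, 8.35 and 11.4 in CD. All HFD+DSS libraries lay below all HFD libraries, and HFD+DSS library 2 lay just above CD+DSS library 1. Epg5 had 2.95, 3.43 and 2.55 FPKM in HFD+DSS, 4.10, 3.39 and 4.05 in CD+DSS, 4.44, 3.76 and 3.80 in HFD, and 4.56, 3.45 and 3.86 in CD. The HFD+DSS libraries were below all HFD libraries and overlapped with CD+DSS through CD+DSS library 2. Tecpr1 averaged 3.40 ± 1.23 FPKM in HFD+DSS, 4.28 ± 0.37 in CD+DSS, 3.00 ± 0.72 in HFD and 3.27 ± 0.70 in CD.

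**Figure D3:**
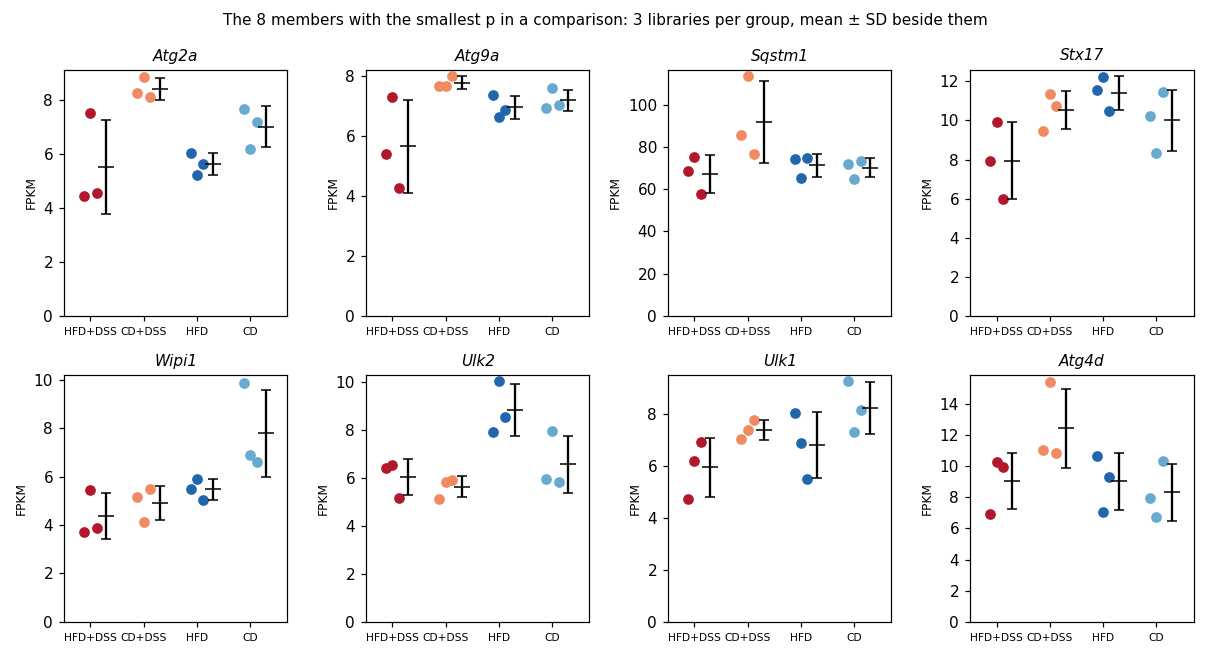
Points give the FPKM of each of 3 libraries per group, with the mean ± SD beside them, for 8 genes with the smallest p of a comparison. The CD+DSS libraries of Atg2a, Sqstm1 and Atg4d are the 3 highest of 12, the CD libraries of Wipi1 are above all others, and the HFD libraries of Ulk2 average 8.81 FPKM.

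Between the DSS groups, which differ in diet, none of the 40 genes was called, and most had a slightly lower mean in HFD+DSS than in CD+DSS. The mean of log2(FPKM + 1) was lower in HFD+DSS for 36 of the 40 genes, and the median difference was -0.16, against -0.026 over all 14179 genes tested, of which 54.6% were lower. The median deviation of the 40 genes had an SD of 0.101 between libraries of a group, pooled over all 4 groups, beside that difference of -0.16. The median deviations of the libraries were -0.128, 0.019 and -0.300 in HFD+DSS and -0.005, 0.193 and -0.032 in CD+DSS. Those of HFD and CD lay between -0.0067 and 0.042. The pooled SD thus understates the spread within the DSS groups that are compared here. By step, lower means were found for 4 of 5 initiation genes, 6 of 6 nucleation genes, 5 of 5 lipid transfer genes, 9 of 11 conjugation genes, 5 of 5 of the LC3 family, 4 of 5 receptors and 3 of 3 fusion genes. The median difference was -0.17 for initiation, -0.21 for nucleation, -0.20 for lipid transfer, -0.07 for conjugation, -0.13 for the LC3 family, -0.28 for the receptors and -0.30 for fusion. The exceptions were Ulk2, Atg16l1, Atg16l2 and Tax1bp1. Without CD+DSS library 2 the LC3 family had lower means for 2 of 5 genes, with a median of 0.025, and initiation for 2 of 5, while nucleation, lipid transfer and fusion had lower means for all 14 of their genes and the receptors for 4 of 5, with a median of -0.02. None of the 40 genes was called by limma, that is, had a p under 0.05 after Benjamini-Hochberg adjustment across the whole table, and 0% of all genes did.

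At an unadjusted p under 0.05, limma placed 7 of the 40 genes lower in HFD+DSS, against 3.84% of all genes tested, and 0 higher, against 2.77% of all. The 7 were Atg2a, Atg9a, Sqstm1, Ambra1, Becn1, Atg14 and Stx17, which span the lipid transfer, receptor, nucleation and fusion steps. The libraries of HFD+DSS lay wholly below those of CD+DSS for 8 genes, Ulk1 and Atg4d beside all of these but Stx17, against 5.85% of all genes, and wholly above for 0, against 3.6% of all. Atg2a averaged 5.51 ± 1.74 FPKM in HFD+DSS and 8.41 ± 0.41 FPKM in CD+DSS (log2 -0.56 ± 0.17, SE; limma, unadjusted p = 0.00684, adjusted p = 0.706). Atg9a averaged 5.66 ± 1.54 FPKM in HFD+DSS and 7.78 ± 0.20 FPKM in CD+DSS (log2 -0.43 ± 0.15, SE; limma, unadjusted p = 0.0181, adjusted p = 0.732). Both were below the CD+DSS range in 3 of 3 HFD+DSS libraries. Sqstm1 averaged 67.3 ± 8.9 FPKM in HFD+DSS and 92.0 ± 19.4 FPKM in CD+DSS, a log2 difference of -0.43, and Becn1 10.7 ± 0.45 FPKM in HFD+DSS and 13.2 ± 0.71 FPKM in CD+DSS, a log2 difference of -0.28. For Sqstm1, CD+DSS library 2 stood at 114 FPKM, and CD+DSS libraries 1 and 3 at 85.5 and 76.7 FPKM. The highest HFD+DSS library, library 2, stood at 75.4 FPKM.

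The size of this difference rested in part on single libraries. The number of genes lower at an unadjusted p under 0.05 was 2 without HFD+DSS library 3, 3 without CD+DSS library 2, 4 without CD+DSS library 1 and 4 without CD library 1, and 0 with both HFD+DSS library 3 and CD+DSS library 2 left out. The median difference was -0.062 without CD+DSS library 2, with 29 of 40 genes lower, and -0.075 with 25 of 40 lower when both were left out. Of all 14179 genes tested, 7570 were lower without CD+DSS library 2 (median -0.018) and 7183 with both left out (median -0.004). Shares over all genes are not given for the counts at an unadjusted p under 0.05. Those counts alone do not show a change particular to the 40 genes. For Atg9a the log2 difference was -0.27 without HFD+DSS library 3.

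Markers of other cell types and of gut position moved with the same comparison. The summed level of 10 smooth muscle markers was 1360 to 4010 FPKM in HFD+DSS and 852 to 1513 FPKM in CD+DSS, with higher means for 10 of 10, and the highest sum was that of HFD+DSS library 3 alone, the other libraries of that group standing at 1360 and 1373 FPKM. For 10 epithelial markers the sums were 5901 to 6045 FPKM in HFD+DSS and 5989 to 9272 FPKM in CD+DSS, with lower means for 10 of 10. The 3 posterior Hox genes summed to 46.6 to 92.8 FPKM in HFD+DSS and 1.62 to 40.5 FPKM in CD+DSS, without overlap. T and NK cell markers summed to 27.2 to 54.7 FPKM in HFD+DSS and 70.9 to 162 FPKM in CD+DSS, with lower means for 9 of 10. Means in HFD+DSS were also higher for 8 of 8 enteric neuron and glia markers and 7 of 7 adipocyte markers tested. They were lower for 6 of 6 endothelial markers. Neutrophil, macrophage, B and plasma cell and fibroblast markers were mixed in direction. CD+DSS library 2, with the highest value of 15 of the 40 genes, had the lowest smooth muscle sum at 852 FPKM, the highest epithelial sum at 9272 FPKM and the lowest Hox sum at 1.62 FPKM. With the level of 1 marker list as a covariate in limma, the number of genes lower at an unadjusted p under 0.05 was 0 for posterior Hox genes, 1 for smooth muscle and 0 for epithelium, and a lower mean was fitted for 31, 30 and 26 of the 40 genes in that order. Each of these lists itself differed between the DSS groups, so these fits cannot separate the list from the group. Counts over all genes in these fits are not given, so a change particular to the 40 genes cannot be read from them. The part of tissue make-up in the difference was not tested beyond these values, and in whole colon fewer cells of a type and less RNA per cell cannot be told apart.

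**Figure D4:**
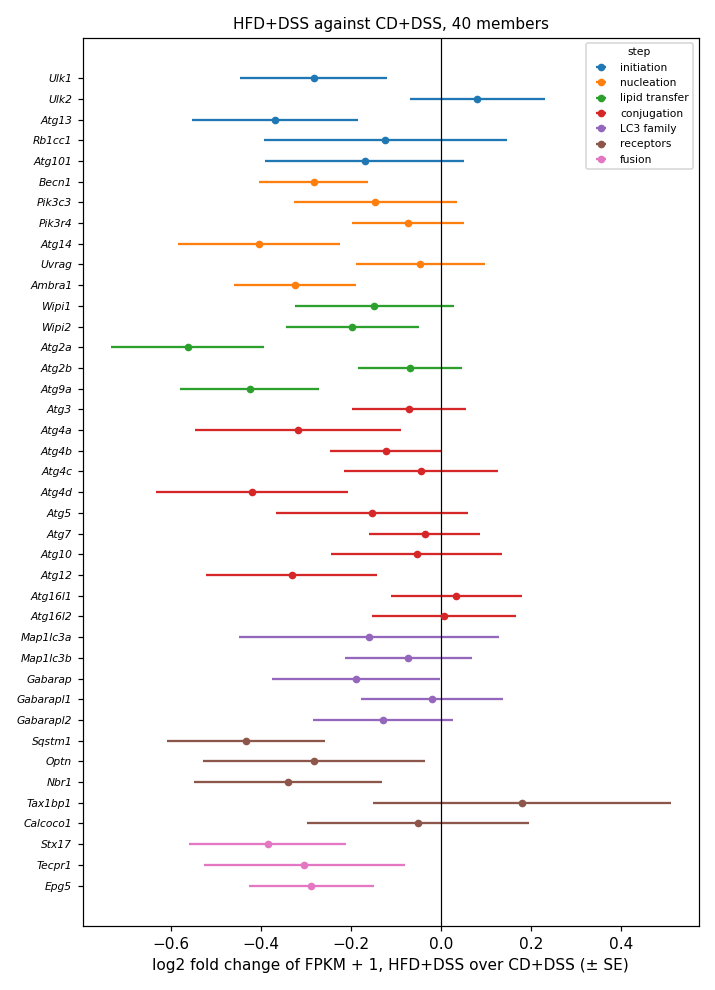
The horizontal axis gives the log2 fold change of FPKM + 1 in HFD+DSS over CD+DSS with its SE from limma for each of the 40 genes, coloured by step. Points lie left of 0 for 36 of 40 genes, with Atg2a at -0.56, and Tax1bp1 has the widest error bar.

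Under the high-fat diet, HFD+DSS and HFD differed in the direction of lower levels with DSS for 29 of the 40 genes. The median log2 difference was -0.094, against 0.0069 over all genes tested, of which 49.1% were lower. None of the 40 was called by limma, against 0.339% of all genes, and at an unadjusted p under 0.05 there were 3 lower, against 6.23% of all, and 0 higher, against 7.34% of all. Those 3 were the kinase Ulk2 and the fusion genes Stx17 and Epg5. Ulk2 averaged 6.02 ± 0.76 FPKM in HFD+DSS and 8.81 ± 1.09 FPKM in HFD (log2 -0.48 ± 0.15, SE; limma, adjusted p = 0.215). Stx17 averaged 7.94 ± 1.97 FPKM in HFD+DSS and 11.4 ± 0.86 FPKM in HFD (log2 -0.50 ± 0.17, SE; limma, adjusted p = 0.261), and its difference was -0.33 without HFD+DSS library 3 and -0.24 when posterior Hox genes were a covariate. Groups lay apart with HFD+DSS lower for Ulk2, Nbr1, Stx17 and Epg5, 4 genes, against 7.6% of all genes, and with HFD+DSS higher for Atg16l1 and Map1lc3b, against 8.82% of all. By step, nucleation and lipid transfer had lower means in 11 of 11 genes, while 3 of 5 LC3 family genes and 5 of 11 conjugation genes had higher means. Neutrophil markers summed to 98.9 to 563 FPKM in HFD+DSS and 3.55 to 60.0 FPKM in HFD. In HFD+DSS most of each sum was Ly6g, at 521, 101 and 92.7 FPKM, which also stood at 165 FPKM in CD library 2, where S100a8 was at 0.183 FPKM and S100a9 at 0. S100a8 ran from 1.89 to 22.3 FPKM in HFD+DSS and from 0 to 0.452 FPKM in HFD. T and NK cell markers summed to 27.2 to 54.7 FPKM in HFD+DSS and 76.4 to 106 FPKM in HFD, without overlap. The part of these 2 lists in the values was not tested.

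Under the CD diet, the 40 genes were split, with higher means in CD+DSS than in CD for 24 and lower means for 16. Of all genes tested 48.5% were lower. The median log2 difference was 0.0315, against 0.0121 over all genes, and it changed sign under other choices, being -0.034 with each library rescaled to the same total, -0.007 after quantile normalization and -0.047 without CD+DSS library 2. None was called by limma, against 0.0846% of all genes. At an unadjusted p under 0.05 Atg4d was higher, against 8.67% of all genes, and Wipi1 lower, against 6.49% of all. Wipi1 averaged 4.92 ± 0.71 FPKM in CD+DSS and 7.79 ± 1.80 FPKM in CD (log2 -0.56 ± 0.18, SE; limma, adjusted p = 0.200). Atg4d averaged 12.4 ± 2.6 FPKM in CD+DSS and 8.32 ± 1.82 FPKM in CD (log2 0.53 ± 0.21, SE; limma, adjusted p = 0.285), a difference of 0.34 with posterior Hox level and 0.13 with epithelial markers as a covariate. The libraries lay apart with CD+DSS higher for 7 genes, Becn1, Atg2a, Atg9a, Atg3, Atg4d, Sqstm1 and Tecpr1, against 13.7% of all genes, and with CD+DSS lower for Wipi1, against 10.4% of all. All 5 LC3 family genes and all 5 receptors had higher means in CD+DSS, with median differences of 0.10 and 0.05, as did 7297 of the 14179 genes tested. Without CD+DSS library 2 the count was 2 of 5 in each, with medians of -0.04 and -0.085. Epithelial markers summed to 5989 to 9272 FPKM in CD+DSS and 4996 to 5633 FPKM in CD, without overlap, and posterior Hox genes to 1.62 to 40.5 FPKM in CD+DSS and 38.3 to 111 FPKM in CD. With these lists as covariates the difference of Atg4d was the smaller one given above. T and NK cell markers summed to 70.9 to 162 FPKM in CD+DSS and 24.2 to 65.7 FPKM in CD, also without overlap, and their part in the values was not tested. Smooth muscle markers had lower means in CD+DSS for 10 of 10, and with them as a covariate the difference of Atg4d was 0.48.

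Without DSS, the 40 genes were split between the diets. HFD had lower means than CD for 24 and higher means for 16 of the 40, and 54.1% of all genes tested were lower. The median log2 difference was -0.048, against -0.016 over all genes. By step, means were lower in HFD for 2 of 5 initiation, 5 of 6 nucleation and 5 of 5 lipid transfer genes. They were lower for 7 of 11 conjugation, 3 of 5 LC3 family, 1 of 5 receptor and 1 of 3 fusion genes. Limma called none, and 0% of all genes. At an unadjusted p under 0.05 Ulk2 was higher in HFD, against 1.77% of all genes, and Wipi1 lower, against 2.38% of all. Ulk2 averaged 8.81 ± 1.09 FPKM in HFD and 6.57 ± 1.18 FPKM in CD (log2 0.38 ± 0.15, SE; limma, adjusted p = 1), with HFD library 1 just below CD library 2. Wipi1 averaged 5.47 ± 0.45 FPKM in HFD and 7.79 ± 1.80 FPKM in CD (log2 -0.43 ± 0.18, SE; limma, adjusted p = 1), and its difference was -0.26 without CD library 1. The libraries lay apart with HFD higher for Nbr1 alone, against 4.61% of all genes, and with HFD lower for Atg101, Wipi1 and Atg2a, against 5.02% of all. T and NK cell markers summed to 76.4 to 106 FPKM in HFD and 24.2 to 65.7 FPKM in CD, without overlap and with higher means for 10 of 10. Adipocyte markers summed to 58.2 to 238 FPKM in HFD and 7.17 to 112 FPKM in CD, and the part of both lists in the values was not tested. Posterior Hox genes summed to 7.04 to 34.7 FPKM in HFD and 38.3 to 111 FPKM in CD, again without overlap. With them as a covariate the difference was 0.38 for Ulk2 and -0.46 for Wipi1.

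These comparisons share libraries: CD+DSS enters the diet comparison under DSS and the DSS comparison under CD, and each of the other groups likewise enters 2 comparisons. For Sqstm1 the log2 difference was -0.43 for HFD+DSS over CD+DSS and 0.37 for CD+DSS over CD, and both rest on the CD+DSS libraries, which were high. For Atg2a the corresponding differences were -0.56 and 0.23, with -0.27 for HFD over CD. For Wipi1, where the CD libraries were high, the differences were -0.56 for CD+DSS over CD and -0.43 for HFD over CD.

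Averaged over both diets, DSS gave the largest number of calls among all genes, 2.74%, and none among the 40. Means were lower with DSS for 24 and higher for 16, and 49.1% of all genes tested were lower. The median log2 difference was -0.046, against 0.0075 over all genes. At an unadjusted p under 0.05 there were 3 lower, against 10.5% of all genes, and 0 higher, against 13% of all. Wipi1 averaged 4.64 ± 0.81 FPKM with DSS and 6.63 ± 1.73 FPKM without (SD, 6 libraries each; log2 -0.42 ± 0.12, SE; limma, adjusted p = 0.0886). Ulk2 averaged 5.82 ± 0.60 FPKM with DSS and 7.69 ± 1.60 FPKM without (log2 -0.33 ± 0.11, SE; limma, adjusted p = 0.105), and the lipid kinase Pik3c3 8.71 ± 1.34 FPKM with DSS and 10.9 ± 2.1 FPKM without. Wipi1 and Ulk2 had the smallest adjusted p of the 40 genes in any comparison, and neither passed the threshold.

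Averaged over DSS status, the high-fat diet had lower means for 35 of the 40 genes, with a median log2 difference of -0.12, against -0.021 over all genes, of which 7932 were lower. Limma called none of the 40, and 0% of all genes. At an unadjusted p under 0.05 there were 3 lower, against 2.9% of all genes, and 0 higher, against 1.77% of all. Atg2a averaged 5.57 ± 1.13 FPKM under HFD and 7.72 ± 0.94 FPKM under CD (SD, 6 libraries each; log2 -0.42 ± 0.12, SE; limma, adjusted p = 0.827), and Ulk1 6.37 ± 1.17 FPKM under HFD and 7.80 ± 0.81 FPKM under CD (log2 -0.27 ± 0.12, SE; limma, adjusted p = 1). Wipi1, the third of them, averaged 4.92 ± 0.90 FPKM under HFD and 6.35 ± 1.99 FPKM under CD. The median difference was -0.078 without CD+DSS library 2.

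The interaction, the DSS difference under HFD minus that under CD, was negative for 28 of the 40 genes and for 51% of all genes tested. Its median over the 40 was -0.18 on the log2 scale, against -0.0071 over all genes. Limma called none, and 0% of all genes, and at an unadjusted p under 0.05 there was 1 gene below 0, against 2.73% of all, and 0 above, against 2.69% of all. That gene was Stx17, at -0.57 ± 0.25 (SE; limma, adjusted p = 0.885), where DSS went with lower levels under HFD and slightly higher ones under CD. The next was Sqstm1, at -0.46 ± 0.25 (SE; limma, adjusted p = 1). When posterior Hox genes were a covariate, the interaction was -0.015 for Stx17 and -0.19 for Sqstm1, and the median of the 40 genes was -0.056. Without CD+DSS library 2 that median was -0.061 and the value for Sqstm1 -0.30. Marker lists differed more in the interaction, with a median of -1.33 for 10 T and NK cell markers, 9 of them below 0, and of 0.91 for 10 smooth muscle markers, all above 0. With smooth muscle markers as a covariate the interaction was -0.35 for Stx17 and -0.24 for Sqstm1, and the median of the 40 genes -0.053. The part of T and NK cells was not tested.

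Other genes of the pathway were taken from 4 lists, 73 of whose genes were tested. Between the DSS groups none of the 73 was called, and 59 had a lower mean in HFD+DSS than in CD+DSS, 80.8%, against 54.6% of all genes, with a median log2 difference of -0.11. Genes that control autophagy through nutrient and energy sensing had lower means in HFD+DSS than in CD+DSS for 23 of 24 tested (25 listed). The list was not divided into genes that promote and genes that restrain autophagy, so the count gives no direction of control. Its smallest p was that of Sesn2, a stress-induced inhibitor of mTORC1 signalling (log2 -0.70 ± 0.22, SE; limma, adjusted p = 0.722). Sesn2 had 3.02, 5.48 and 3.12 FPKM in HFD+DSS and 5.22, 8.61 and 6.64 FPKM in CD+DSS. HFD+DSS library 2 overlapped with CD+DSS library 1. Its difference was -0.40 with posterior Hox genes, -0.42 with smooth muscle and -0.46 with epithelial markers as a covariate, and -0.43 with CD+DSS library 2 and HFD+DSS library 3 both left out. Sesn2 was the 1 gene of the 73 that was lower at an unadjusted p under 0.05, a share of 1.37%, against 3.84% of all genes, and 0 were higher, against 2.77% of all. The other lists had lower means for 10 of 14 further phagophore genes (16 listed), 13 of 19 further selective autophagy genes (22 listed) and 13 of 16 further fusion genes. The counts of lower means on the 4 lists were not taken again without CD+DSS library 2. Their smallest p belonged to Nrbf2, a subunit of the lipid kinase complex (log2 -0.23 ± 0.17, SE; limma, adjusted p = 0.828), Lgals3, galectin-3, which marks damaged lysosomes (log2 -0.63 ± 0.32, SE; adjusted p = 0.749), and Vamp8, the lysosomal partner of Stx17 (log2 -0.33 ± 0.23, SE; adjusted p = 0.812). These 3 differences changed sign under a covariate, to 0.015 for Nrbf2 with posterior Hox genes and, with epithelial markers, to 0.069 for Lgals3 and 0.053 for Vamp8. None of the genes on these lists was called in a comparison of 2 groups, in the averaged diet comparison or in the interaction.

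Called genes were found on 3 of these lists for DSS averaged over diets, 1 gene each. These 3 are 4.11% of the 73 genes tested, near the 2.74% of all genes called. Trp53inp1, a stress gene of the p53 pathway whose protein binds LC3, fell with DSS (log2 -1.01 ± 0.24, SE; limma, adjusted p = 0.0474). It had 16.5, 20.5 and 6.31 FPKM in HFD+DSS, 13.7, 18.6 and 14.4 in CD+DSS, 31.3, 35.5 and 24.4 in HFD, and 26.4, 33.3 and 27.9 in CD. Every DSS library lay below every library without DSS. Bcl2l1, which encodes the survival protein BCL-XL and binds Beclin 1, rose with DSS (log2 0.43 ± 0.09, SE; limma, adjusted p = 0.0378). It had 12.4, 11.0 and 13.3 FPKM in HFD+DSS, 12.3, 13.9 and 12.1 in CD+DSS, 9.38, 7.98 and 9.31 in HFD, and 8.21, 9.48 and 9.98 in CD. Again the 6 DSS libraries and the 6 others did not overlap. Retreg1 (FAM134B), a receptor for autophagy of the endoplasmic reticulum, fell with DSS (log2 -0.86 ± 0.20, SE; limma, adjusted p = 0.0427). It had 13.0, 20.1 and 10.8 FPKM in HFD+DSS, 17.8, 19.6 and 14.9 in CD+DSS, 21.8, 26.3 and 30.0 in HFD, and 41.5, 41.0 and 21.4 in CD. The DSS libraries lay below the others here too, with HFD+DSS library 2 at 20.1 FPKM closest to CD library 3 at 21.4 FPKM. Among further fusion genes, Ykt6, a SNARE that can stand in for Stx17, had the smallest p for DSS averaged over diets (log2 0.33 ± 0.10, SE; limma, adjusted p = 0.0838) and was not called. The 3 calls lay close to the threshold. Leaving out any 1 of 10 of the 12 libraries ended the call of Trp53inp1 (adjusted p over the 12 fits 0.0235 to 0.135), and the same held for Bcl2l1 (0.0398 to 0.117) and for Retreg1 (0.0173 to 0.118), each with its direction kept in every fit. Only HFD+DSS libraries 2 and 3 could be left out for Trp53inp1, HFD+DSS library 2 and CD library 3 for Bcl2l1, and HFD+DSS library 2 and CD library 3 for Retreg1. With epithelial markers as a covariate the adjusted p was 0.379 for Trp53inp1, 0.42 for Bcl2l1 and 0.254 for Retreg1, and without the filter on low values 0.106, 0.0525 and 0.0971.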

How the data were processed

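RNA was measured in 12 colon libraries, made per the labels with a SMARTER mRNA-seq kit. The authors deposited 1 table of FPKM per gene and library, and the build is mm10 per the submitters' processing notes. No aligner, counter or strand setting is given in the sources used here. Gene names came from a table of mouse gene identifiers and exon lengths from GENCODE, and each matched 54409 of 54532 identifiers. With those lengths, 97.5 to 97.7% of values gave whole fragments within 0.1, which served 1 alternative test (voom).

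A pseudocount of 1 was added and log2 taken. A single limma fit (limma 3.58.1, R 4.3.3, eBayes with a trend) gave each of the 4 groups its mean, for the 14179 genes that had FPKM of at least 1 in 3 or more libraries. P-values were adjusted by Benjamini-Hochberg across those genes, with 0.05 as the threshold for a call. Fold changes on this scale understate those of low genes. The fit was tested on simulated data. The genes and all lists were chosen with earlier results of these data known. Full statistics went to called genes and to the 2 of the 40 with the smallest p per comparison; other pathway genes were named if called, else by smallest p, and genes with an unadjusted p under 0.05 or groups lying apart were named after their values were seen. Nothing says that the libraries of a group are separate animals, so p-values measure the spread between these libraries. Alternatives covered scaling, pseudocount, filter, samples, replicate block, covariates and left-out libraries.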

Additional observations from a re-analysis of the deposited data

How the results depend on the processing

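None of the 40 genes was called in any of the 7 comparisons under any of 25 alternatives (175 counts). For the averaged comparisons and the interaction, the alternative with only the groups of the contrast keeps all 4 groups and repeats the main fit. The number lower in HFD+DSS than in CD+DSS, 36, was 25 to 37. The 7 genes lower there at an unadjusted p under 0.05 became 2 with each library rescaled to the same total, 1 with only the groups of the contrast in the fit, 0 with posterior Hox level, 1 with smooth muscle markers and 0 with epithelial markers as a covariate, and 0 with CD+DSS library 2 and HFD+DSS library 3 both left out, a setting added after the data were seen. With 1 library left out the genes lower at that threshold numbered 2 to 10. Counts over all genes are not set beside these numbers, so a change particular to the 40 genes cannot be read from them. Each marker list itself differed between the DSS groups, so the covariate fits cannot separate the list from the group. Replicate numbers gave no evident pairing of the libraries. Correlations of same-numbered deviations ran from -0.462 to 0.204 over 18 pairs, and 3 exceeded 0.1, which cannot exclude pairing. With a replicate block the 7 became 4, no call among the 40 changed, and the calls of Bcl2l1 (adjusted p = 0.0804) and Retreg1 (0.056) were lost. The median interaction of -0.18 was -0.056 with posterior Hox level, -0.053 with smooth muscle markers and -0.056 with both libraries left out, and -0.232 to -0.061 with 1 left out. The cause was not tested. Nrbf2 reversed to 0.015 with posterior Hox level, and with epithelial markers Vamp8 reversed to 0.053 and Lgals3 to 0.069. With 3 libraries a group, the log2 difference of -0.56 for Atg2a between the DSS groups, with a standard error of 0.17, was not called. Smaller differences with a like standard error cannot be resolved either. For the least covered gene 54 to 107 fragments a library add counting error.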
